A study of Mus musculus with 11 samples.

Results

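Interferon-response and antigen-presentation genes were followed in the hippocampus of mice given AC-T chemotherapy or saline. The members are 37 named genes: 7 transcription factors and regulators of interferon signalling, 15 antiviral effectors, 3 guanylate-binding proteins, 7 genes of the MHC class I pathway and 5 of the MHC class II pathway. Of the 37, 35 had a row among the 17118 genes of the count table and 32 were abundant enough to be tested. Nlrc5 and Ciita, the trans-activators of the MHC class I and class II genes, were not analysed here.

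The series concerns gut, microbiome and cognition after chemotherapy, and the data hold RNA sequencing of punches of hippocampal tissue. All mice were female C57/BL6 (genotype label C57/BL6J), 12 weeks old when treated, and were injected into the abdominal cavity once a week, 8 times in all. The AC-T mice were given doxorubicin at 2 mg/kg together with 50 mg/kg cyclophosphamide in the first 4 injections and paclitaxel at 5 mg/kg in the last 4. The controls were given 0.9% saline. The libraries carry a 1-month label and come from 5 AC-T mice (501, 502, 503, 600 and 602) and 6 saline mice (201, 202, 203, 300, 301 and 302), 1 library per mouse.

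Type I interferons bind a receptor on nearly all cells and act through the Janus kinases on a complex that holds Stat2 and Irf9. This complex binds the interferon-stimulated response element (ISRE) in front of its target genes, which encode proteins that block the copying, assembly or release of viruses. Interferon gamma acts mainly at the gamma-activated site (GAS). Both kinds of interferon raise MHC class I, which shows peptides from inside the cell to CD8 T cells. MHC class II shows peptides taken up from outside to CD4 T cells, and in the brain it is found mainly on macrophages at the borders and vessels and on reactive microglia. In the healthy brain both are kept low.

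Library totals were 28.3 to 31.7 M counts (M, mega) in AC-T and 23.4 to 32.1 M counts in saline libraries. No pair of libraries agreed within sampling noise. The saline 300 library listed Xist, the transcript of the inactive X chromosome of females, at 0, against 13057 to 22963 counts in the other libraries, which goes against its label. All 13 markers of thalamic neurons, cells of a neighbouring region, were lower in AC-T libraries at the threshold used below. Their summed level was 614 to 939 CPM (a read count normalised for library size) in AC-T and 1228 to 1784 CPM in saline libraries. Of 14 markers of hippocampal principal neurons, 2 were higher (Neurod6 and Mpped1) and none was lower. In whole tissue, fewer cells of a type and less RNA per cell cannot be told apart, and treatment and the level of thalamic markers go together in these libraries.

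No member differed between AC-T and saline hippocampus past the threshold, in either direction. Of the 32 members tested, 0 were higher and 0 were lower at an adjusted p under 0.05 (edgeR quasi-likelihood test, Benjamini-Hochberg adjustment over 15353 genes). Among all genes tested, 4.89% were higher and 3.58% were lower. At an unadjusted p under 0.05 the count of members was again 0, against 24.9% of all genes. DESeq2 and limma-voom called 0 members as well. For no member did the 5 AC-T libraries lie wholly above or below the 6 saline libraries, whereas 7.54% of all tested genes had groups that did not overlap. The smallest adjusted p among the members was 0.288, for Irf3.

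The fitted log2 fold changes of the members, AC-T minus saline, had a median of -0.10, against -0.0029 over all genes tested. Of the 32, 6 were above 0 and 26 were below 0. The members had wide intervals, so a missing call does not show equal levels. Among the 29 members with a value above 0 in every library, the 95% interval of the fold change lay within 2-fold in either direction for 26 and within 1.5-fold for 17. Without AC-T mouse 503, described below, the median was -0.26, 31 of 32 log2 fold changes were below 0 and 6 members had an unadjusted p under 0.05, none of them past the adjusted threshold. The share of all genes at that p in this fit is not given, and it was 24.9% in the main fit. AC-T 503 was the highest AC-T library for 25 of the 32, so leaving it out lowers most of the AC-T means. With the thalamic marker score as a covariate the median was -0.41, again with 0 members called, but in that fit 0 of all genes were called. Without saline 300, the library at 0 for Xist, 0 members were called and the median was -0.11. The split was nearer to even when some other libraries were left out. It was 14 members above 0 and 18 below without AC-T 502, and 14 and 17 without saline 202 (median -0.02). It was 13 and 18 without saline 302 (median -0.03), and 16 and 17 without AC-T mice 600 and 602 (median -0.02). Other omissions made it less even: 2 and 30 without saline 301 (median -0.16), 3 and 29 without saline 300, and 4 and 28 without saline 203. Without AC-T mice 501, 502 and 503 it was 3 and 30 (median -0.26).

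**Figure D1:**
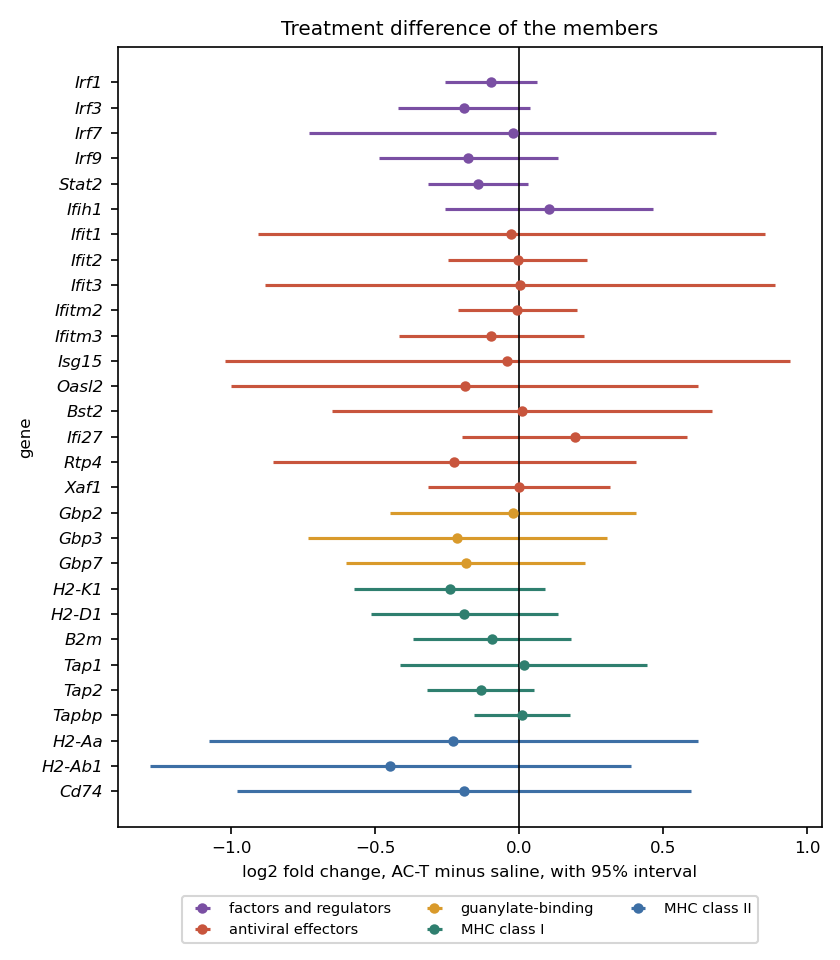
Log2 fold change of AC-T minus saline (x axis) with its 95% interval for the 29 members above 0 in all libraries (y axis, coloured by role). All 29 intervals include 0, and those of Isg15, Ifit1, Ifit3, Oasl2 and the class II genes are the wider ones.

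The members spread widely between mice of the same treatment. The SD of log2 CPM within a treatment had a median of 0.33 over the members and 0.13 over all genes tested, a comparison that is not matched on level. For the 29 members above 0 in every library, this SD was 1.22 to 9.61 times what counting error alone gives, with a median of 3.49 times. A few mice carried the high values, and they were not the same mice for every role, as the following values show.

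The sequences in front of the members were searched for the elements that interferon-activated factors are known to bind. The promoters of 28 members were matched in RefSeq (GRCm38.p6), as 33 windows from 250 bases before to 50 bases after a start site. An ISRE core, here GAAANNGAAA on either strand with overlapping matches allowed, was in 14 of the 33 windows (42.4%) and in 3.44% of all 32851 windows. A GAS, here TTCNNNGAA, was in 6 windows (18.2%) and in 8.30% of all. By role, the ISRE core was in 8 of 13 windows of antiviral effectors, 3 of 4 of guanylate-binding proteins, 2 of 8 of factors and regulators, 1 of 6 of class I and 0 of 2 of class II genes. In Bst2 and Ifitm3 a GAS match overlaps an ISRE match. The 200 bases before the start site are shown for 6 members that the results turn on, 5 with an ISRE core and H2-K1 without one, each read along the gene's own strand. Capitals mark the ISRE matches.
Isg15, chr4:156200819-156201018, minus strand: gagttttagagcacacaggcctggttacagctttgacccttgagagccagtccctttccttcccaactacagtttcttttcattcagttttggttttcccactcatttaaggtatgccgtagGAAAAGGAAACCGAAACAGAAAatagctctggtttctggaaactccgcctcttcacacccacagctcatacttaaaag
Ifit1, chr19:34640689-34640888, plus strand: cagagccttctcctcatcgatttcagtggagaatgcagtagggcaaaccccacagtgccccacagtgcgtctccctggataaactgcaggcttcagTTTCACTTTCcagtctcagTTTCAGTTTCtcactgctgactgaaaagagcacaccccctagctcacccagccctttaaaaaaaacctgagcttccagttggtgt
Ifit3, chr19:34583329-34583528, plus strand: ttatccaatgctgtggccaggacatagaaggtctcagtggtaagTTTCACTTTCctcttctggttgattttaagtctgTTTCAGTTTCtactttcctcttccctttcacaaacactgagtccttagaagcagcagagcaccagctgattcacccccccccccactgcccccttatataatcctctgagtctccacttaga
Gbp3, chr3:142559844-142560043, plus strand: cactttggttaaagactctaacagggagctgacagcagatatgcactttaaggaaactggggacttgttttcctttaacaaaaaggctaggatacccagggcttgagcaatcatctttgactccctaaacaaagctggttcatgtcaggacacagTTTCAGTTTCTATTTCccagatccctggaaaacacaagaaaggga
B2m, chr2:122147487-122147686, plus strand: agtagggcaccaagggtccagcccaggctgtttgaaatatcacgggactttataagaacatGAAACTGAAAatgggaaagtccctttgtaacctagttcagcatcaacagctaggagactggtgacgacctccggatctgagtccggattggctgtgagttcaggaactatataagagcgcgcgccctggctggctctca
H2-K1, chr17:34000334-34000533, minus strand: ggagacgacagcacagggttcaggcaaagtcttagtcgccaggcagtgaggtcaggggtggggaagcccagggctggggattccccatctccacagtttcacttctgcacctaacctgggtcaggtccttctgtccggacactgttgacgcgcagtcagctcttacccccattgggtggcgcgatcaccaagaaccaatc

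Isg15 had 3 overlapping matches, beginning 78, 72 and 66 bases before the start, and Ifit1 had separate matches at 104 and 85 bases. Ifit3 had matches at 156 and 122 bases, Gbp3 at 45 and 39 bases and B2m at 139 bases before the start. A match is a description of the letters and not a bound site, and a window without one says only that these letters are not in it. Among members above 0 in every library, the SD within a treatment had a median of 0.32 on the log2 scale for 12 genes with an ISRE core, with a range of 0.14 to 0.68. For 12 genes without one it was 0.26, with a range of 0.11 to 0.67. The ranges overlap over most of their length.

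Among the factors, Irf3 had the smallest p of all members. Irf3 is the factor that the sensors of viral nucleic acid activate first to switch on interferon genes. Its level was 21.8, 16.1, 19.5, 23.5 and 21.5 CPM in AC-T mice 501, 502, 503, 600 and 602, against 20.1 to 28.3 CPM with a median of 23.3 CPM in saline mice. The means were 20.5 ± 2.84 CPM in AC-T and 23.4 ± 2.89 CPM in saline libraries (SD, n = 5 and 6), and 3 of the 5 AC-T values lay inside the saline range while the other two lay below it. The log2 fold change was -0.19 ± 0.10 (SE, adjusted p = 0.288, edgeR). Stat2 and Irf9, the partners in the complex that binds the ISRE, had log2 fold changes of -0.14 ± 0.08 and -0.18 ± 0.14 (adjusted p = 0.301 and 0.492).

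Stat2 was 25.2, 23, 25.1, 24.8 and 23.6 CPM in the AC-T mice and 22.8 to 33.1 CPM with a median of 25.9 CPM in saline mice. Its AC-T values were close together, and the wide side was saline, where mouse 202 had the highest value. Irf9 was 10.1, 8.03, 15, 9.65 and 11 CPM in the AC-T mice and 10.7 to 14 CPM with a median of 12.0 CPM in saline mice. Here 1 AC-T mouse, 503, was above the whole saline range and 3 were below it. Irf1, a factor induced strongly by interferon gamma, was 8.57, 8.13, 8.38, 7.41 and 7.95 CPM in the AC-T mice and 7.72 to 9.68 CPM with a median of 8.64 CPM in saline mice. It had the smallest spread of the members, 0.11 on the log2 scale, and its log2 fold change was -0.10 ± 0.07 (adjusted p = 0.451).

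Irf7, the factor that interferon itself induces and that amplifies the response, behaved otherwise. It was 2.97, 2.84, 6.55, 2.31 and 3.53 CPM in the AC-T mice and 2.33 to 6.05 CPM with a median of 3.28 CPM in saline mice. In each treatment 1 mouse, AC-T 503 or saline 302, stood at more than 6 CPM, and saline 202 came next at 4.90 CPM. The treatment means were 3.64 ± 1.69 and 3.7 ± 1.5 CPM in AC-T and saline libraries, with a log2 fold change of -0.02 and a 95% interval of -0.73 to 0.68. Ifih1, the MDA5 sensor of long double-stranded RNA, was also highest in AC-T 503 (8.15 CPM, against 4.34 to 5.88 CPM in the other AC-T mice) and ran from 4.21 to 6.87 CPM in saline mice.

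Several antiviral effectors differed widely between mice. Isg15 encodes a ubiquitin-like protein that is joined to other proteins after interferon. It was 1.41, 1.38, 5.26, 1.58 and 1.63 CPM in AC-T mice 501, 502, 503, 600 and 602, against 1.24 to 4.74 CPM with a median of 1.85 CPM in saline mice. Of the 5 AC-T values, 4 lay between 1.38 and 1.63 CPM, and AC-T 503 was 3.51 times their median. In saline, mouse 302 was 2.80 times the median of the other 5. The means were 2.25 ± 1.68 CPM in AC-T and 2.32 ± 1.28 CPM in saline libraries, a log2 fold change of -0.04 with a 95% interval of -1.02 to 0.94 (adjusted p = 0.970, edgeR).

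Ifit3, Ifit1, Oasl2 and Bst2 are shown because of their spread and were chosen after their values were seen. Ifit3 and Ifit1 belong to the IFIT family, whose members bind foreign RNA or each other. Ifit3 was 8.73, 10.8, 35.4, 7.10 and 9.39 CPM in the AC-T mice and 10.3 to 22.4 CPM with a median of 12.2 CPM in saline mice. AC-T 503 was thus above every saline mouse, while 3 of the other 4 AC-T mice were below every saline mouse. The means were 14.3 ± 11.9 CPM in AC-T and 14.2 ± 4.71 CPM in saline libraries, and the log2 fold change was 0.0032 ± 0.40. Reads of Ifit3 can be shared with its close copy Ifit3b, which had the same order of the top mice in each treatment, with 18.4 CPM in AC-T 503 and 11.6 CPM in saline 302.

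Ifit1 was 2.75, 3.80, 9.73, 2.44 and 3.22 CPM in the AC-T mice and 2.76 to 8.40 CPM with a median of 3.46 CPM in saline mice. Oasl2, of the family of oligoadenylate synthetases, was 4.20, 3.49, 11.4, 3.52 and 4.79 CPM in the AC-T mice and 3.90 to 10.7 CPM with a median of 5.33 CPM in saline mice. Bst2, or tetherin, holds budding virus particles at the cell surface, and it was 4.74, 3.98, 9.38, 5.86 and 6.23 CPM in the AC-T mice and 3.04 to 10.1 CPM with a median of 5.83 CPM in saline mice. In all of these genes the top mouse was AC-T 503 in 1 group and saline 302 in the other. Rtp4, an interferon-induced chaperone of receptors, was 2.03, 1.76, 4.66, 2.01 and 2.31 CPM in the AC-T mice and 2.16 to 4.23 CPM with a median of 2.77 CPM in saline mice, with the same pair of mice on top.

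Other effectors varied less. Ifit2 was 9.22 to 14.6 CPM in AC-T and 9.95 to 12.6 CPM in saline mice, and Xaf1, a gene linked to cell death after interferon, was 4.95 to 7.75 CPM in AC-T and 5.22 to 8.62 CPM in saline mice. Ifitm2 and Ifitm3, membrane proteins that hinder virus entry, had log2 fold changes of -0.01 ± 0.09 and -0.10 ± 0.15, and their reads can be shared between close copies. Ifi27 had the largest log2 fold change above 0 among members seen in every library, 0.19 ± 0.18 (adjusted p = 0.558). Its level was 35.6, 36.5, 50.1, 50.4 and 39.7 CPM in the AC-T mice and 24.2 to 49.2 CPM with a median of 38.0 CPM in saline mice, so the groups overlapped.

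Of the 35 members with a row, 6 were listed at 0 in some libraries. How a 0 arose is not stated, and the lowest value above 0 was 37 to 64 counts in these 6 genes. A 0 may therefore not mean absence. No fold change is given for them. Mx1, a GTPase that blocks influenza virus and that C57/BL6 mice carry as a defective allele, had 37 counts in AC-T 503 and was at 0 in the other 10 libraries. Ifi44 had 90 counts in AC-T 503 and 63 counts in saline 302 and was at 0 elsewhere. Oas1a, an oligoadenylate synthetase, was above 0 in AC-T 503 and in saline 202 and 302, with 67.0, 38.7 and 41.7 counts. In these 3 genes, then, the libraries above 0 were AC-T 503, saline 302 and, for Oas1a, saline 202.

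Rsad2, or viperin, makes a chain-ending nucleotide against viral polymerases. It was above 0 in AC-T 503 and 602, with 119 and 76 counts, and in saline 302, 202 and 201, with 136, 78 and 64 counts. Usp18, which removes Isg15 from proteins and dampens the interferon receptor, was 1.45, 0, 5.36, 1.22 and 1.85 CPM in the AC-T mice and 1.31 to 3.98 CPM with a median of 1.63 CPM in saline mice. Its highest mice were again AC-T 503 and saline 302. The sixth, H2-Eb1, is described with class II.

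**Figure D2:**
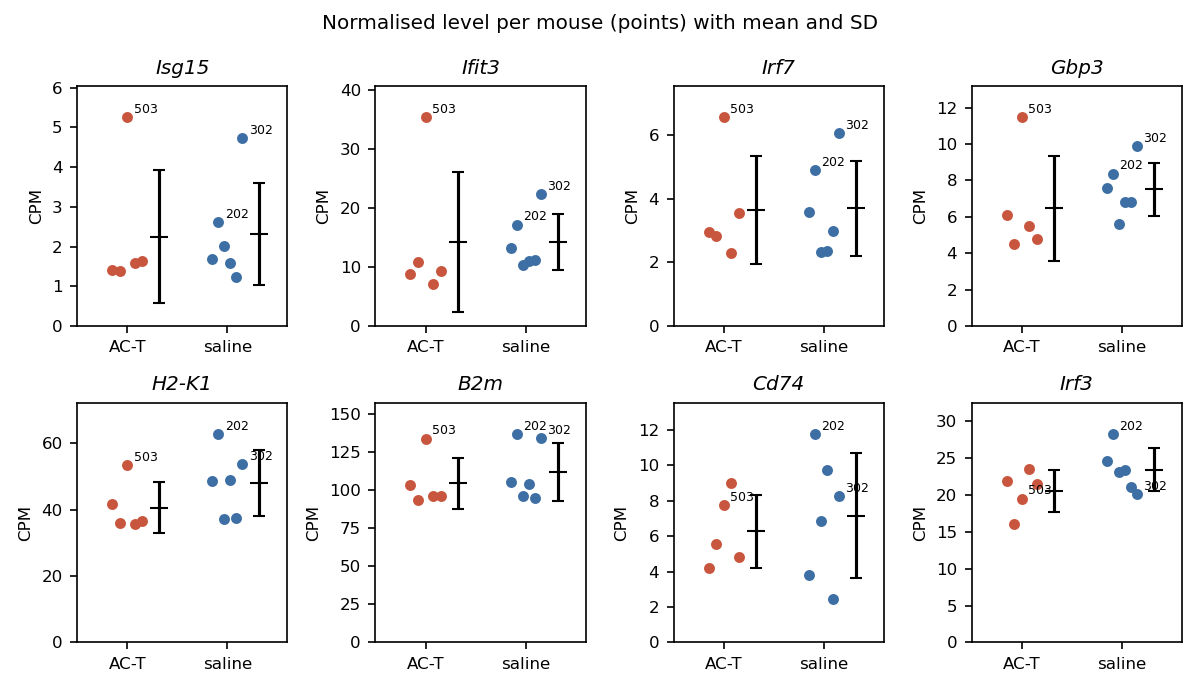
Level in CPM (y axis, from 0) of 8 members in each mouse, AC-T left (red) and saline right (blue), with the mean and SD as bars beside the points. Isg15, Ifit3, Irf7 and Gbp3 have 1 AC-T mouse (503) far above the other 4, while the saline mice 302 and 202 are marked for comparison.

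Guanylate-binding proteins are GTPases that attack the membranes around intracellular microbes. Gbp3 was 6.08, 4.50, 11.5, 5.47 and 4.79 CPM in the AC-T mice and 5.61 to 9.86 CPM with a median of 7.19 CPM in saline mice. AC-T 503 was above all saline mice, and 3 of the other 4 AC-T mice were below all of them. Its log2 fold change was -0.22 ± 0.24 (adjusted p = 0.632, edgeR). Without AC-T 503, Gbp3 had the smallest adjusted p of any member in any alternative fit, 0.064.

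Gbp7 was 5.50, 5.66, 8.57, 5.17 and 5.72 CPM in the AC-T mice and 4.98 to 10.5 CPM with a median of 6.6 CPM in saline mice. Gbp2 was 3.98 to 8.88 CPM in AC-T and 4.94 to 7.22 CPM in saline mice. In all 3 genes the highest mice were AC-T 503 and saline 302. Gbp2, Gbp3 and Gbp7 are similar in sequence, and the way shared reads were divided between them could not be checked here.

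The class I genes ranged less widely, and another saline mouse led them. H2-K1 and H2-D1 encode the heavy chains of MHC class I, and reads common to both can be split between them. H2-K1 was 41.8, 35.9, 53.5, 35.6 and 36.5 CPM in the AC-T mice and 37.1 to 62.9 CPM with a median of 48.8 CPM in saline mice. Of the AC-T mice, 3 were below all saline mice, and AC-T 503 was inside the saline range. The means were 40.7 ± 7.63 CPM in AC-T and 48.1 ± 9.89 CPM in saline libraries, with a log2 fold change of -0.24 ± 0.15 (adjusted p = 0.364, edgeR).

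H2-D1 was 54.4, 51.4, 74.1, 51.8 and 54.5 CPM in the AC-T mice and 51.4 to 90.8 CPM with a median of 59.4 CPM in saline mice, a log2 fold change of -0.19 ± 0.15 (adjusted p = 0.477). B2m, the light chain shared by all class I molecules, was 104, 93.7, 134, 96.4 and 95.9 CPM in the AC-T mice and 94.7 to 137 CPM with a median of 105 CPM in saline mice. Its top mice, AC-T 503 and saline 202 and 302, lay between 134 and 137 CPM, and the remaining 8 libraries lay between 93.7 and 105 CPM. Its log2 fold change was -0.10 ± 0.12 (adjusted p = 0.694).

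Tap1 and Tap2 form the transporter that carries peptides to class I molecules, and Tapbp (tapasin) holds the transporter and the class I molecule together. Tap2 was 8.97, 9.62, 11.8, 9.55 and 10.4 CPM in the AC-T mice and 10.004 to 12.8 CPM with a median of 10.7 CPM in saline mice (log2 fold change -0.13 ± 0.09, adjusted p = 0.371). Tap1 ran from 4.02 to 6.75 CPM in AC-T and 3.31 to 6.37 CPM in saline mice, and Tapbp from 23.3 to 27.5 CPM in AC-T and 21.6 to 27.6 CPM in saline mice. AC-T 503 was the highest AC-T mouse for all 6 class I genes. The highest saline mouse was 202 for 5 of the 6 and 300 for Tapbp, and it was 302 for none.

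The class II genes followed yet another order of mice. H2-Aa, H2-Ab1 and H2-Eb1 encode class II chains, and Cd74 encodes the invariant chain that guides them through the cell. Cd74 was 4.20, 5.54, 7.75, 8.99 and 4.82 CPM in AC-T mice 501, 502, 503, 600 and 602, against 2.45 to 11.8 CPM with a median of 7.56 CPM in saline mice. The saline range enclosed every AC-T value, and its ends were mouse 301 at the bottom and mouse 202 at the top. The log2 fold change was -0.19 ± 0.36 (adjusted p = 0.800, edgeR).

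H2-Ab1 had the log2 fold change farthest from 0 of the members above 0 in every library, -0.45 ± 0.38 (adjusted p = 0.518). It was 1.08, 1.83, 2.96, 2.50 and 1.63 CPM in the AC-T mice and 1.11 to 5.29 CPM with a median of 2.57 CPM in saline mice, so 4 of the 5 AC-T values lay inside the saline range. H2-Aa was 1.52 to 3.53 CPM in AC-T and 1.07 to 5.17 CPM in saline mice. H2-Eb1 was 1.63, 2.80, 2.73, 3.23 and 1.38 CPM in the AC-T mice, and in saline it was at 0 in mouse 301 and 4.59 CPM in mouse 202. Saline 202 was the highest saline mouse for all 4 class II genes. The AC-T side was led by 503 for 2 of them and by 600 for the other two.

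The heat map of the members shows these orders side by side. AC-T 503 was the highest AC-T library for 25 of the 32 tested members, while it was highest for 20.1% of all tested genes. Among saline libraries, 202 was highest for 16 members, 302 for 13 and 300 for 3, while over all tested genes the shares were 18.8%, 14.6% and 21.9%. For 13 members (40.6%), AC-T 503 and saline 302 were both on top, as they were for 3.03% of all genes. These 13 were 2 factors or regulators, 8 antiviral effectors and all 3 guanylate-binding proteins, and none was a class I or class II gene. The mice were picked out by these same values, so the counts describe the libraries and carry no test.

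**Figure D3:**
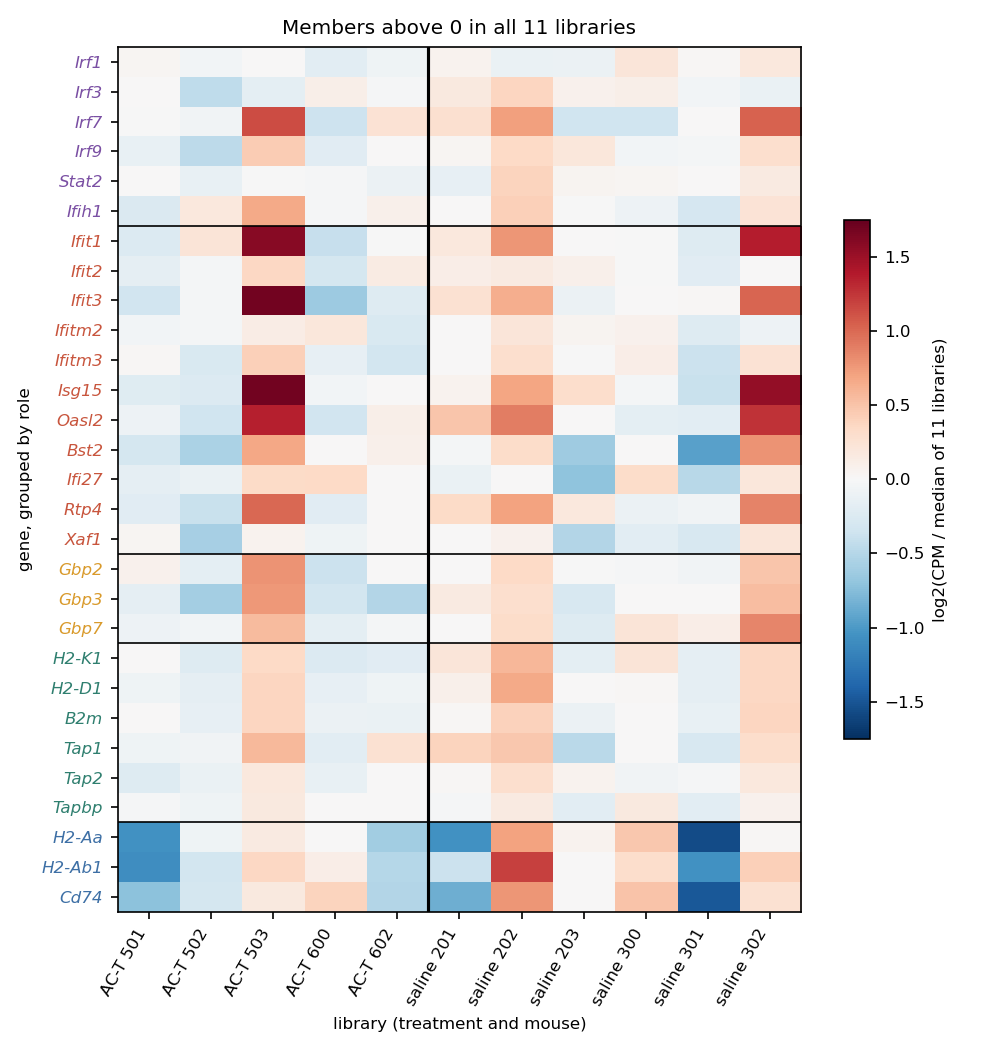
Log2 of CPM over the median of the 11 libraries (colour) for the 29 members above 0 in every library (rows, by role from factors at the top to class II at the bottom), with AC-T mice left and saline mice right of the line. Columns AC-T 503 and saline 302 are dark for Ifit1, Ifit3, Isg15, Oasl2 and Irf7, while the class II rows are on average lowest in AC-T 501 and saline 201 and 301.

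**Figure D4:**
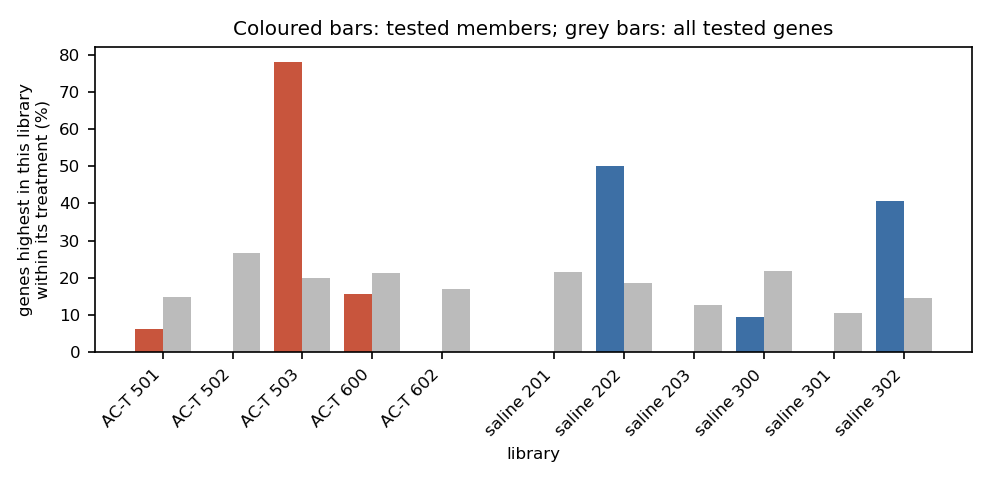
Percent of genes (y axis, from 0) for which a library is the highest of its treatment, for the 32 tested members (coloured) and for all tested genes (grey), AC-T libraries left. AC-T 503 leads for 25 members, saline 202 for 16 and saline 302 for 13.

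By size, AC-T 503 was a median of 2.04 times the median of the other 4 AC-T mice over the antiviral effectors tested, 1.82 times over the guanylate-binding proteins, 1.39 times over class I and 1.44 times over class II genes. Over all tested genes the ratio was 1.00. The mean log2 level of the 20 interferon-response members above 0 in every library, taken relative to each gene's median, was -0.11, -0.21, 0.67, -0.16 and -0.04 in the AC-T mice. In saline mice it ran from -0.18 in mouse 301 to 0.55 in mouse 302, with 0.39 in mouse 202. The 3 class II genes had -0.95, -0.24, 0.23, 0.17 and -0.54 in the AC-T mice and -1.37 in saline 301 to 0.89 in saline 202.

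Interferon-stimulated genes outside the members showed the same high mice. A list of 73 such genes had 58 in the table and 50 tested, of which 0 were higher and 0 were lower in AC-T libraries and 4 had an unadjusted p under 0.05. The smallest p belonged to Znfx1, an RNA helicase, with a log2 fold change of 0.12 ± 0.04 (adjusted p = 0.096, edgeR). AC-T 503 was the highest AC-T library for 40 of the 50, saline 302 the highest saline library for 20, and both were on top for 17. The mean log2 level of the 41 genes above 0 in every library was 0.34 in AC-T 503, against -0.17 to -0.06 in the other AC-T mice. In saline mice it was 0.21 in both 202 and 302, against -0.14 to 0.04 in the other 4.

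Markers of other cell types were set beside these levels. The summed level of 18 microglial markers was 753, 588, 724, 641 and 590 CPM in the AC-T mice and 568 to 715 CPM in saline mice, with AC-T 501 and saline 302 on top. Of the 18, 0 passed the edgeR test and 0 had an unadjusted p under 0.05. For the 8 listed genes of perivascular macrophages and blood myeloid cells with a row, the sum was 26.8, 22.3, 27.5, 17.5 and 15.6 CPM in the AC-T mice and 18.5 to 39.2 CPM in saline mice, with AC-T 503 and saline 202 on top. By summed level, AC-T 503 was the highest AC-T library for astrocytes, endothelial cells, mural cells, meninges, red blood cells and the perivascular macrophage list. Saline 302 was the highest saline library for microglia, lymphocytes and hippocampal principal neurons, and for 13 of the 18 microglial markers. In no cell-type list were AC-T 503 and saline 302 together the highest libraries by sum. By single gene, both were on top for 3 of 18 microglial, 1 of 12 astrocyte and 1 of 10 oligodendrocyte markers. They were both on top for no marker of the other cell-type lists, and for 3.03% of all tested genes. The part of these and the following cell types in the members' levels was not tested.

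Meningeal markers had some of the low mice of the class II genes. The summed level of 9 meningeal genes was 187, 274, 336, 324 and 203 CPM in the AC-T mice and ran from 155 CPM in saline 301 to 409 CPM in saline 300, with 369 CPM in saline 202. Saline 301, the lowest saline mouse for all 4 class II genes, was also lowest for the meningeal sum, and AC-T 501 and 602 were low in both. The 5 red blood cell genes were highest in saline 202 at 757 CPM, against 120 to 299 CPM in AC-T and 212 to 511 CPM in the other saline mice. Of 14 endothelial markers 1 was lower in AC-T libraries (Pecam1), of 10 mural markers 1 (Notch3) and of 12 astrocyte markers 3 (Slc4a4, S100b and Aqp4).

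T and B cell genes were scarce. Of 19 listed lymphocyte markers, 6 had a row and 4 were tested. Of these 4, 1 passed, and the log2 fold change was above 0 for 3 and below 0 for 1. Apart from the 1 that passed, none had an unadjusted p under 0.05 (edgeR). Trbc2, a constant segment of the T cell receptor beta chain, was higher at 7.61, 2.53, 3.45, 7.11 and 5.19 CPM in the AC-T mice, against 0.935 to 1.59 CPM in saline mice (log2 fold change 2.18 ± 0.29, adjusted p = 0.00248, edgeR). Its order of AC-T mice differed from that of the members, since AC-T 503 was next to lowest.

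**Figure D5:**
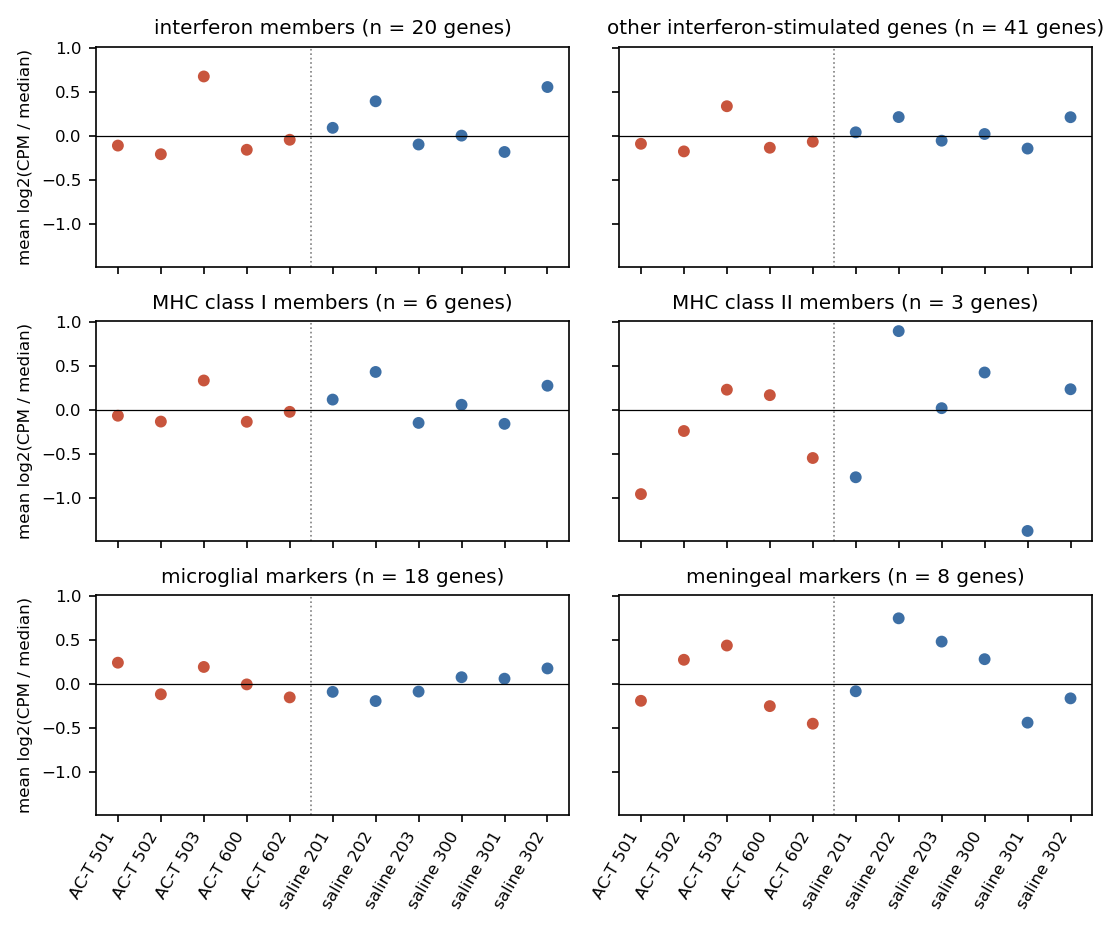
Mean log2 of CPM over the gene's median (y axis) in each library (x axis, AC-T in red on the left, saline in blue on the right) for the 20 interferon members, the 41 other interferon-stimulated genes, the class I and class II members and the microglial and meningeal markers. AC-T 503 and saline 302 and 202 are high in both interferon panels, while the class II panel has its low points at AC-T 501 and saline 201 and 301.

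Differences between series of mouse numbers, within a treatment, were also looked at. The first digit of the number divides saline mice into series 2 and 3 and AC-T mice into series 5 and 6. Its meaning is not in the labels, and no series holds both treatments, so treatment and series cannot be told apart. In series 6 against series 5 of AC-T mice, 0 members passed, against 0.117% of all tested genes, and 0 members had an unadjusted p under 0.05, against 13.5% of all. In series 3 against series 2 of saline mice, 0 members passed, against 1.03% of all. There 1 member, Irf1, had an unadjusted p under 0.05 (log2 difference 0.19, adjusted p = 0.208 by edgeR), against 20.1% of all genes. The high mice were 1 of 3 in series 5, 1 of 3 in series 2 and 1 of 3 in series 3.

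In the pathway lists outside the members, at most 1 gene per list passed. Interferon ligands could not be followed, since 0 of the 10 listed had a row, and they were not analysed here. Of 11 tested receptors, Janus kinases and their partners, 1 was higher in AC-T libraries and none was lower. This was Jak1, the kinase shared by the receptors of all interferon types. It was 158, 179, 155, 150 and 165 CPM in the AC-T mice and 122 to 141 CPM in saline mice, so the groups did not overlap (log2 fold change 0.27 ± 0.05, adjusted p = 0.0154, edgeR).

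Of 5 tested interferon regulatory factors and binding partners outside the members, 1 was higher. Irf2, which competes with Irf1 for the same sites, had a log2 fold change of 0.18 ± 0.05 (adjusted p = 0.048, edgeR), with 24.6, 24.5, 22.3, 25.6 and 24.1 CPM in the AC-T mice and 20.3 to 23.7 CPM in saline mice. Of 16 tested sensors of nucleic acid and their adaptors, 0 passed in either direction and 1 had an unadjusted p under 0.05. Mavs, the mitochondrial adaptor of the RNA sensors, had that p (log2 fold change -0.25 ± 0.09, adjusted p = 0.106). Of 28 tested class I and antigen-processing genes outside the members, 1 was lower and none was higher. This was Rfxank, a subunit of the RFX factor that binds the promoters of MHC genes, with 15.4, 12.7, 14.3, 16.5 and 16.0 CPM in the AC-T mice and 16.3 to 19.6 CPM in saline mice (log2 fold change -0.30 ± 0.07, adjusted p = 0.0298).

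Of 8 tested class II processing genes outside the members, 1 was higher and none was lower. March1, a ubiquitin ligase that removes class II molecules from the cell surface, was 27.1, 34.4, 30.7, 25.7 and 25.7 CPM in the AC-T mice and 20.4 to 25.9 CPM in saline mice (log2 fold change 0.32 ± 0.09, adjusted p = 0.041, edgeR). The shares of these lists that passed were 1 of 11, 1 of 5, 0 of 16, 1 of 28 and 1 of 8, beside 8.47% of all tested genes in either direction.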

How the data were processed

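Poly(A) RNA from hippocampal punches of 5 AC-T and 6 saline mice was made into stranded libraries and sequenced. The submitters' processing notes name Dragen 4.3.6, FastQC 0.11.9, Salmon 1.9.0 and the build GRCm39. The deposited table holds expected counts per gene, which Salmon divides among similar genes. How a 0 arose is not given in the sources used here. The values were rounded to whole numbers and tested in R 4.3.3 with edgeR 4.0.16 (quasi-likelihood F test, 2-sided, TMM factors, filterByExpr with a minimum count of 10, 15353 genes). Benjamini-Hochberg adjusted p under 0.05 passed. CPM values use the same factors and are not scaled by gene length, and SDs are over mice. Within-group SDs of log2 CPM used a pseudocount of 0.25 CPM. The fit was checked on simulated counts.

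Library totals of 23.4 to 32.1 M counts (M, mega) set the counting error. The labels name separate mice. The annotation used here is of another build, so no gene position is printed, and promoter windows are RefSeq's on GRCm38.p6. Alternatives were other scaling factors and filters, DESeq2 1.42.0, limma-voom 3.58.1, series of mouse numbers as a random effect, the thalamic marker score as covariate, unrounded values, a threshold of 0.1, and omission of each library and series. A fit without AC-T 503 and saline 302 was chosen after seeing the data.

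The members and all gene lists were chosen with earlier results of these data known. Values per AC-T library, with the range and median of saline libraries, are given for the 12 members with the smallest p. The same holds for Isg15, Stat2, Irf7, B2m, H2-K1, H2-D1 and Cd74. For members at 0 in some library, the libraries above 0 or the range are given. From each pathway list, up to 3 genes that passed are named, or else the 1 with the smallest p. Of the pathway lists, 1 gene is not reported here.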

Additional observations from a re-analysis of the deposited data

Results flagged for a closer look

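Single libraries stood far from the rest of their group for 12 members, by the gap to the nearest library divided by the range of the group. Chance flags about 1 in 20 groups by this measure. The bar is Dixon's critical value at 95% for 5 AC-T or 6 saline libraries. AC-T 503 was the high library for Irf7 (0.711), Ifit1 (0.813), Ifit3 (0.87), Isg15 (0.937), Oasl2 (0.837), Rtp4 (0.81), Gbp3 (0.774), Gbp7 (0.838), H2-D1 (0.867) and B2m (0.752). Saline 302 was high for Usp18 (0.711), and AC-T 502 was low for Xaf1 (0.749). A further 3 members, Oas1a, Mx1 and Ifi44, were above 0 in AC-T 503 alone among AC-T libraries, and Ifi44 in saline 302 alone among saline libraries. Their measure of 1 is fixed by the listed zeros and says nothing of how far those libraries stood from the rest.

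Among the 32 tested members, 10 had a high AC-T library and 1 had a high saline library past the bar. Over all tested genes the shares were 2.92% in AC-T and 3.91% in saline libraries. AC-T 503 itself was the high library for 0.567% of all tested genes and saline 302 for 0.234%. Among the summed marker levels, hippocampal principal neurons were low in AC-T 503 (0.775), oligodendrocytes were low in AC-T 502 (0.752), and endothelial cells were high in saline 300 (0.671).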

How the results depend on the processing

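The count of members called was 0 in both directions under each of the 27 alternative fits run and at a threshold of 0.1, and it was 0 in the contrasts between series. The smallest adjusted p of any member over those fits was 0.0637 (Gbp3, without AC-T 503). Leaving out AC-T 503 gave 6 members with an unadjusted p under 0.05 (Irf9, Ifit3, Rtp4, Gbp3, H2-K1 and Tap2), and leaving out AC-T 503 and saline 302 together gave 3 (Irf9, Ifit3 and Gbp3), a smallest adjusted p of 0.0806 and a median log2 fold change of -0.20. The share of all genes at that unadjusted p is not given for these fits, and it was 24.9% in the main fit. The median over members was -0.41 with the thalamic score as covariate and ran from -0.26 (without AC-T 503) to -0.02 (without saline 202) over the omissions of 1 library. For 20 of the 32 members the sign of the log2 fold change turned under some alternative, in 122 of 857 values. The other 12 were below 0 in the main fit and in every alternative fit that tested them. No member passed in any of these.

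The count of all genes called, 1301, was 2295 at a threshold of 0.1, 2593 with DESeq2, 293 with limma-voom and series as a random effect, 0 with the thalamic score as covariate, 549 without saline series 2, 317 without AC-T series 5 and 409 without AC-T series 6. It ran from 625 (without AC-T 502) to 1229 (without saline 302) over the omissions of 1 library, passing through 681 when AC-T 602 was omitted, 815 when saline 202 was and 832 when saline 300 was. The split of higher against lower calls was 751 and 550 with TMM factors, 663 and 598 with DESeq2 size factors, 593 and 663 with upper-quartile factors and 487 and 548 with library totals. The ISRE core was in 14 member windows and in 8 when it had to be followed by CT. Causes were not tested. No paired analysis was possible because the groups share no mouse numbers. The spread between mice was 3.84 times counting error for Isg15 and 6.6 times for Cd74. Isg15 had 158 counts in AC-T 503 and 149 in saline 302, against 36 to 68 counts in the other libraries. The part of depth in these spreads was not tested.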

Other observations

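Genes with AC-T 503 and saline 302 on top were looked for over the whole table. Both mice were picked out by the members' values, so such a top list exists whatever the data. Both were on top for 3.03% of all tested genes. All 14226 tested genes above 0 in every library were ranked by how far AC-T 503 exceeded the next AC-T library and saline 302 the next saline library, taking the smaller of the ratios. Of the top 20, 7 were members (Isg15, Ifit1, Gbp7, Bst2, Ifit3, Oasl2 and Irf7), 2 were in other lists (Herc6 and Ddx58, the RNA sensor RIG-I) and 11 were in none. Among all 14226 genes ranked, 29 were members. The smaller ratio fell from 1.81 at rank 1 (Isg15) to 1.18 at rank 20. The genes below were chosen after their values were seen, and no test was made.

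Ccl12, a chemokine that attracts monocytes, was 1.26 CPM in AC-T 503, which is 2.28 times the next AC-T library, and 0.668 CPM in saline 302, which is 1.44 times the next saline library. Rnf213, a large ubiquitin ligase, was 23.8 CPM in AC-T 503 and 10.5 to 13.3 CPM in the other AC-T mice, and 19.5 CPM in saline 302 and 12.9 to 14.2 CPM in the other saline mice. Outside this ranking, Cxcl10, a chemokine that attracts T cells and that interferon induces, was at 0 in 8 libraries. It was 2.86 CPM in AC-T 503, 2.16 CPM in saline 302 and 0.656 CPM in saline 202. Most of the remaining genes of the top 20 carried predicted-model or pseudogene names.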
